A study of Homo sapiens with 12 samples.

Results

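The matrix proteases MMP1, MMP2, MMP3, MMP9 and MMP14, the tissue inhibitors of metalloproteinases TIMP1, TIMP2 and TIMP3, and urokinase (PLAU) with its receptor (PLAUR) were followed in Daoy medulloblastoma (MB) cells. These 10 genes were chosen by name as members of a pathway, and their probes were found by matching the RefSeq accession of each array probe to the gene symbol. They had 11 probes on the array, 1 for each gene and a further 1 for PLAU, and each gene was read through its brightest probe. Of the 10 genes, 9 were well above background on all 12 arrays and were tested among 25275 genes. MMP3 was above background on none (0) of the arrays.

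Daoy is an established human MB line, so all samples come from a single line. The cells were grown in DMEM with fetal bovine serum or in astrocyte conditioned medium (ACM), which is medium taken from primary neonatal rat astrocytes cultured in serum-containing DMEM and filtered to remove cells. RNA was taken after 48 h, at the end of 1 passage (P1), or after 3 such passages (P3), from 3 cultures for each medium and passage, which gave P1 ACM, P1 DMEM, P3 ACM and P3 DMEM. Each of the 12 RNA samples was hybridised to 1 single-colour Agilent array, 4 arrays to a slide. The p-values of group differences rest on the spread between arrays of a group, all from this line. That spread holds differences between cultures and hybridisations, and between slides where a group was split over slides.

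Slides and groups overlapped in part. All P1 ACM cultures were on slide 1, together with replicate 1 of P3 ACM. The other two P3 ACM cultures shared slide 2 with P1 DMEM replicates 1 and 2. P1 DMEM replicate 3 was on slide 3 with every P3 DMEM culture. The authors also deposited a table of normalized values in which the columns of all 12 samples match the scanner output of other samples, so the labels conflict, and results below follow the scanner files. The share of probes well above background was 91% to 94.6% on slide 1, 74.3% to 80.4% on slide 2 and 88.1% to 91% on slide 3. ACM and DMEM of the same passage therefore never met on a slide, and slide 2 was the only one with both media. A fit with slide as a fixed block thus links the media through single arrays. These are P3 ACM replicate 1 at P1 and P1 DMEM replicate 3 at P3. Of 10 markers of Daoy cells and neural progenitors, 9 were above background on all arrays, and ATOH1 was above background on 2. Of 7 astrocyte markers 4 (AQP4, ALDH1L1, SLC1A3 and GJA1) were above background on all arrays, SLC1A2 on 11, and GFAP and S100B on 7 each. Their summed level was 1.73 to 2.48 in ACM and 1.99 to 2.45 in DMEM, with GJA1 (1.23 to 2.20) the brightest. Single markers went both ways. The log2 difference of ACM against DMEM at P1 was 2.18 for S100B, 1.65 for ALDH1L1, 0.67 for SLC1A2 and 0.16 for SLC1A3. It was −0.11 for GJA1, −0.28 for GFAP and −1.37 for AQP4.

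MMPs are zinc-dependent enzymes that cut proteins of the extracellular matrix and other proteins at the cell surface. TIMPs bind and block them, and TIMP2 also bridges membrane-bound MMP14 to the inactive form of MMP2 so that MMP14 can activate it. Urokinase, held at the cell surface by its receptor, turns plasminogen into plasmin, a broad protease that can in turn activate several MMPs. Tumour cells use this network when they move through matrix, and its output depends on enzyme relative to inhibitor as well as on activation after synthesis, which an mRNA array does not measure.

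Levels are log2 values of the background-corrected intensity, set on each array so that 0 is the brightness at its 75th percentile, and 1 unit is a 2-fold difference. Probes differ in how brightly they bind, so a level is compared between arrays and not between genes. In a bulk RNA sample fewer cells with a transcript and less transcript per cell cannot be told apart. No spot of these genes was saturated on the 12 arrays (0 of 456 spots over the 11 probes).

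**Figure D1:**
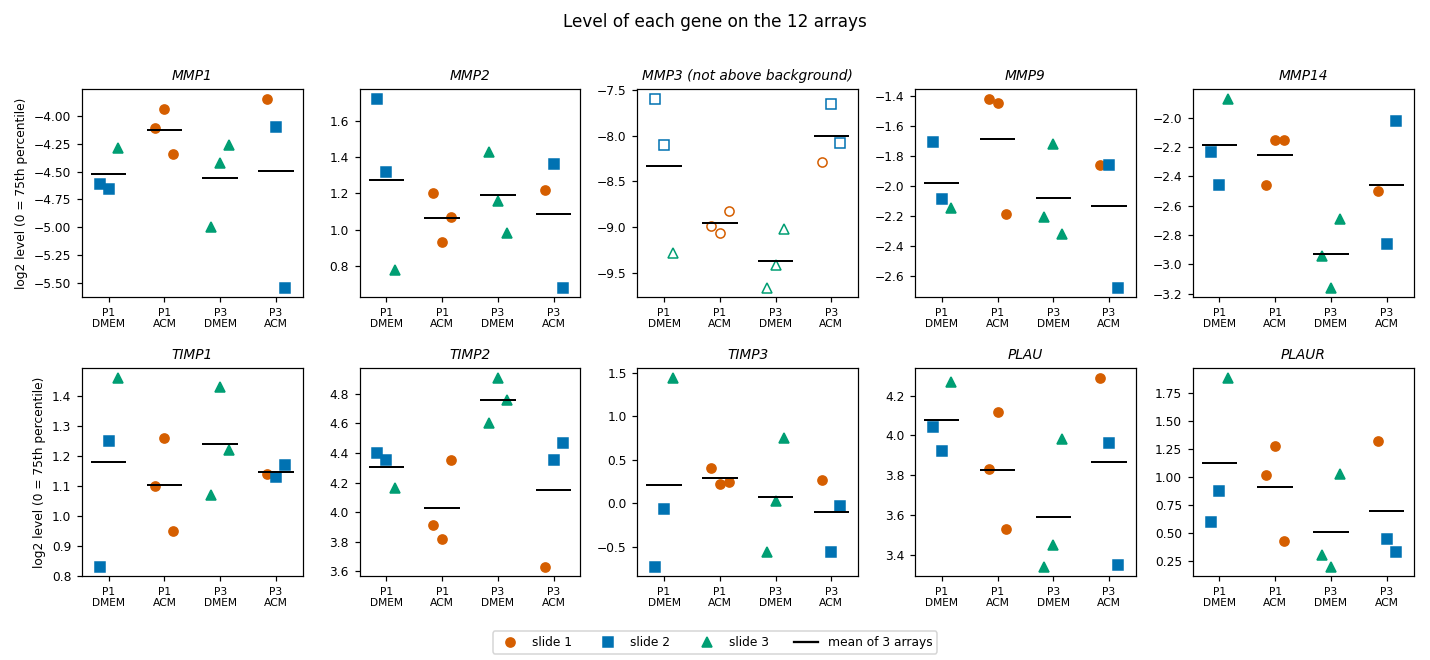
Log2 level of each of the 10 genes (vertical axes, each with its own range, with 0 at the array's 75th percentile) in P1 DMEM, P1 ACM, P3 DMEM and P3 ACM. Each point is 1 array, its colour and shape give the slide, and the line is the mean of 3 arrays. Open points for MMP3 are values below background. The 3 P3 DMEM arrays lie above the 3 P3 ACM arrays for TIMP2 (4.60 to 4.91 against 3.63 to 4.47), and for MMP14 they lie below the 3 P1 DMEM arrays (−3.16 to −2.69 against −2.46 to −1.87).

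After 1 passage no difference between ACM and DMEM passed the test for any of the 9 measured genes. In limma's fit of all 12 arrays 0 of 9 were called at more than 2-fold with p of 0.05 or less, against 13.6% of all genes tested, and 0 of 9 had p of 0.05 or less, against 24%. The groups of 3 arrays failed to overlap for 0 of the 9, against 35.9% of all genes. Among genes above background on all arrays, as these 9 are, 4.46% were called and 28.4% did not overlap. Of such genes 14.3% were higher and 1.12% lower with p of 0.05 or less. No gene (0) of the 25275 passed an adjusted p of 0.05. The methods' t-test also called 0 of the 9. The 95% interval of the difference stayed within 2-fold in both directions for 6 of the 9 genes and reached past it for MMP1, TIMP3 and PLAUR.

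MMP1, the interstitial collagenase (probe A_23_P1691), had log2 levels of −4.11, −3.94 and −4.34 in the 3 P1 ACM arrays and −4.61, −4.66 and −4.29 in P1 DMEM. All but 1 DMEM array lay below the ACM arrays, a log2 difference of 0.39 (SE 0.38, 95% interval −0.44 to 1.23, adjusted p = 0.635 in limma). This direction turned under quantile normalization, to −0.21. MMP2, the gelatinase that degrades type IV collagen (A_33_P3237135), stood at log2 levels of 1.20, 0.93 and 1.07 in P1 ACM and 1.72, 1.32 and 0.78 in P1 DMEM. The DMEM arrays spanned the ACM arrays, and the difference was −0.20 (SE 0.26, −0.78 to 0.37, adjusted p = 0.742 in limma). MMP9, the second gelatinase (A_23_P40174), had log2 levels of −1.42, −1.45 and −2.19 in P1 ACM and −1.71, −2.09 and −2.15 in P1 DMEM. ACM replicate 3 was the lowest of the 6 arrays, and the difference was 0.30 (SE 0.29, −0.35 to 0.94, adjusted p = 0.644 in limma).

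The stromelysin MMP3 (A_23_P161698), which can activate other MMPs, gave log2 values from −9.66 to −7.60, none well above background, so no fold is given. MMP14, the membrane-bound activator of MMP2 (A_24_P82106), had log2 levels of −2.46, −2.15 and −2.15 in P1 ACM and −2.23, −2.46 and −1.87 in P1 DMEM. The arrays were mixed between media and the difference was −0.06 (SE 0.24, −0.60 to 0.47, adjusted p = 0.927 in limma).

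The media also overlapped for each of the 3 inhibitors. TIMP1, a secreted inhibitor of most MMPs (A_23_P62115), had log2 levels of 1.1, 1.26 and 0.95 in P1 ACM and 0.83, 1.25 and 1.46 in P1 DMEM, a difference of −0.07 (SE 0.19, −0.49 to 0.34, adjusted p = 0.883 in limma). TIMP2 (A_33_P3382177) had log2 levels of 3.91, 3.82 and 4.35 in P1 ACM and 4.40, 4.35 and 4.16 in P1 DMEM, a difference of −0.28 (SE 0.24, −0.80 to 0.25, adjusted p = 0.579 in limma). Here 2 ACM arrays lay below all DMEM arrays and the other lay level with them. TIMP3, the inhibitor that stays bound to the matrix (A_23_P399078), had log2 levels of 0.40, 0.22 and 0.24 in P1 ACM and −0.73, −0.07 and 1.44 in P1 DMEM. Its ACM arrays, all on slide 1, kept together (SD 0.10), while its DMEM arrays spread widely (SD 1.12), with the array of slide 3 the highest of all 12. The difference was 0.07 (SE 0.49, −1.01 to 1.16, adjusted p = 0.961 in limma).

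Urokinase, PLAU (A_23_P24104), had log2 levels of 3.83, 4.12 and 3.53 in P1 ACM and 4.04, 3.92 and 4.27 in P1 DMEM. The media overlapped and the difference was −0.25 (SE 0.27, −0.84 to 0.34, adjusted p = 0.685 in limma). Its second, dimmer probe differed by −0.24. PLAUR (A_23_P16469) had log2 levels of 1.02, 1.28 and 0.43 in P1 ACM and 0.60, 0.88 and 1.89 in P1 DMEM, a difference of −0.21 (SE 0.40, −1.09 to 0.66, adjusted p = 0.834 in limma). The highest value was again the DMEM array on slide 3. Over the 9 genes 3 differences were above 0 and 6 below, with a median of −0.07, beside a median of 0.0482 for the 20168 genes above background on all arrays.

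**Figure D2:**
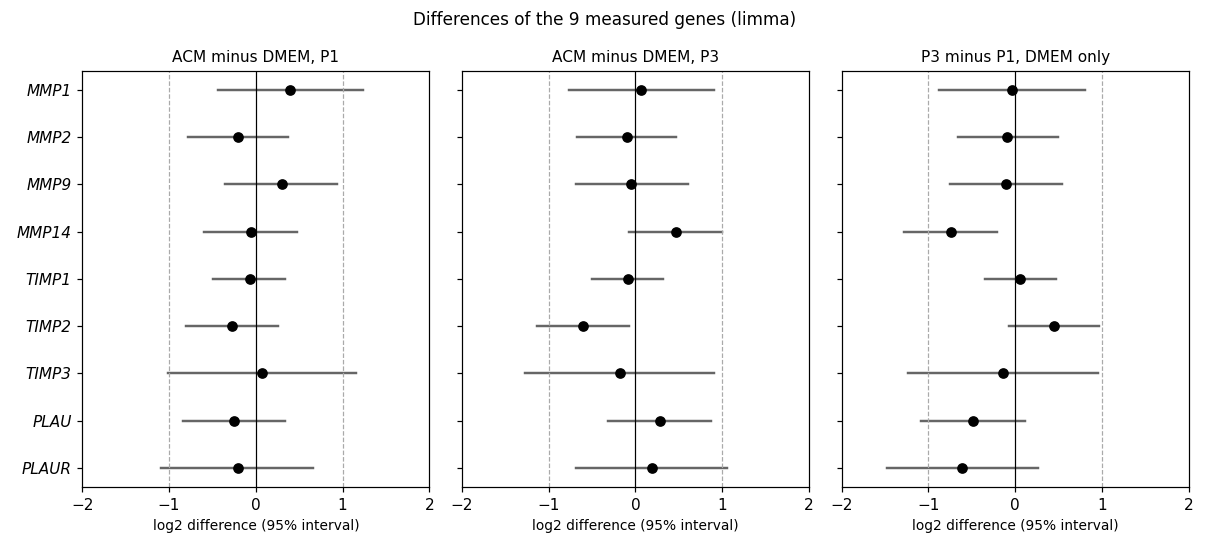
Log2 difference with its 95% interval from limma (horizontal axes) for the 9 measured genes, for ACM minus DMEM at P1, ACM minus DMEM at P3, and P3 minus P1 in DMEM. Dashed lines mark 2-fold. At P1 all 9 intervals cross 0; at P3 only that of TIMP2 does not (−1.13 to −0.08), and between the DMEM passages only that of MMP14 does not (−1.28 to −0.21).

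After 3 passages TIMP2 was the only gene of the 9 with p of 0.05 or less. It was lower in ACM by less than 2-fold, so that 0 of 9 genes were called, against 1.73% of all genes. The share with p of 0.05 or less was 1 of 9 against 7.28% of all genes, and the arrays of the media did not overlap for 1 of 9, TIMP2, against 9.76%. No adjusted p reached 0.05 for any of the 25275 genes, and the methods' t-test called 0 of the 9.

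TIMP2 had log2 levels of 3.63, 4.35 and 4.47 in P3 ACM and 4.60, 4.91 and 4.76 in P3 DMEM. Every ACM array lay below every DMEM array. The difference of −0.61 (SE 0.24, 95% interval −1.13 to −0.08) is 1.52-fold, with p = 0.0266 before and 0.683 after adjustment in limma, and the exact permutation test of 3 against 3 gave p = 0.1, the smallest it can give. Without P3 ACM replicate 1, the only array of the 6 on slide 1, the difference was −0.35 and no longer had p of 0.05 or less (adjusted p = 0.606 in limma). It also missed it without P3 DMEM replicate 2 (−0.53) or P3 DMEM replicate 3 (−0.60). Without the 4 arrays of slide 2, which leaves that array as the only P3 ACM array, it was −1.13. That fit was chosen after seeing the data and takes the spread of the single P3 ACM array from the other groups, so no test is read from it. The mean level of TIMP2 was 3.93 on slide 1, 4.39 on slide 2 and 4.61 on slide 3. Within slide 2, P3 ACM minus P1 DMEM was 0.03, which compares different passages. With slide as a fixed block the P3 difference was −0.57 (adjusted p = 0.977 in limma). That value links the media through P1 DMEM replicate 3 alone, the only P1 DMEM array on slide 3. Under quantile normalization the P3 difference was −0.39 (adjusted p = 0.633 in limma). Neither had p of 0.05 or less before adjustment. The part of the slides in the P3 difference was not tested. In the authors' table, whose labels conflict with the scanner files, the difference was 0.38, ACM being higher.

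Its partner MMP14 stood the other way. The log2 levels were −2.50, −2.86 and −2.02 in P3 ACM and −2.94, −3.16 and −2.69 in P3 DMEM, a difference of 0.47 (SE 0.24, −0.07 to 1.00, adjusted p = 0.703 in limma). The second ACM array lay among the DMEM arrays. Leaving out that array gave 0.67 (adjusted p = 0.714 in limma), with p of 0.05 or less before adjustment, and leaving out ACM replicate 3 gave 0.25 (adjusted p = 0.588). In the authors' table the difference was −0.35.

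The arrays of the media overlapped for the other 7 genes. MMP1 had log2 levels of −3.85, −4.10 and −5.54 in P3 ACM and −5.00, −4.42 and −4.26 in P3 DMEM, a difference of 0.06 (adjusted p = 0.971 in limma). Replicate 3 of P3 ACM was the lowest of all 12 arrays and replicate 1 the highest. MMP2 levels were 1.22, 1.36 and 0.68 in P3 ACM and 1.43, 1.16 and 0.98 in P3 DMEM, a log2 difference of −0.10. MMP9 levels were −1.86, −1.86 and −2.68 in P3 ACM and −2.21, −1.72 and −2.32 in P3 DMEM, a log2 difference of −0.05. For MMP1, MMP2 and MMP9 alike, P3 ACM replicate 3 was the lowest of the 12 arrays.

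TIMP1 levels were 1.14, 1.13 and 1.17 in P3 ACM and 1.07, 1.43 and 1.22 in P3 DMEM, a log2 difference of −0.09. TIMP3 levels were 0.27, −0.56 and −0.03 in P3 ACM and −0.56, 0.02 and 0.75 in P3 DMEM, a log2 difference of −0.18. The media overlapped for both. PLAU levels were 4.29, 3.96 and 3.35 in P3 ACM and 3.34, 3.45 and 3.98 in P3 DMEM, a log2 difference of 0.28 (−0.32 to 0.87). PLAUR levels were 1.32, 0.45 and 0.33 in P3 ACM and 0.30, 0.20 and 1.03 in P3 DMEM, a log2 difference of 0.19 (−0.68 to 1.06). Each medium again held both high and low arrays for these genes. In limma the adjusted p of MMP2, MMP9, TIMP1, TIMP3, PLAU and PLAUR lay between 0.803 (PLAU) and 0.974 (MMP9). Over the 9 genes 4 differences were above 0 and 5 below, with a median of −0.05, beside 0.00932 for the genes above background on all arrays.

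Whether the effect of ACM changed from P1 to P3 was tested directly. In the limma test of the difference itself, 0 of 9 were called, against 6.86% of all genes, and 0 of 9 had p of 0.05 or less, against 8.24%. The smallest adjusted p was 0.752, for MMP14, whose difference was 0.53 higher at P3 (95% interval −0.22 to 1.29). PLAU also differed by 0.53 (−0.31 to 1.36). Once slide was a fixed block 2 of the 9 were called, beside 2.83% of all genes, PLAU at 1.14 and PLAUR at 1.80. TIMP2, at −1.0, also had p of 0.05 or less (adjusted p = 0.945 in limma for all 3 genes). These values rest on P3 ACM replicate 1 and P1 DMEM replicate 3, each the only array of its group on its slide.

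The control medium was compared with itself across passages, as the change seen without ACM. This comparison shares the P1 DMEM and P3 DMEM arrays with those above. The MMP14 levels of −2.94, −3.16 and −2.69 in P3 DMEM all lay below the −2.23, −2.46 and −1.87 of P1 DMEM, a log2 difference of −0.74 (SE 0.24, 95% interval −1.28 to −0.21), which is 1.67-fold. Its p was 0.011 before and 0.571 after adjustment in limma. Within slide 3, where all 3 P3 DMEM arrays and P1 DMEM replicate 3 lay, the difference was −1.06. It was −0.58 (adjusted p = 0.484 in limma) without that P1 DMEM array, with p of 0.05 or less before adjustment. In the authors' table, under its own labels, it was 0.07. TIMP2 differed by 0.45, P3 DMEM being higher with no overlap (SE 0.24, adjusted p = 0.571 in limma). Of the 9 genes 0 were called, against 1.72% of all genes, 1 had p of 0.05 or less, against 8.13%, and 2 did not overlap, against 18.9%.

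The second PLAU probe (A_33_P3306146), matched to another RefSeq transcript of the gene, was lower in P3 DMEM by 1.1 on the log2 scale (difference −1.1, SE 0.35, adjusted p = 0.571 in limma), past the thresholds for a call. Its log2 levels were −0.85, −0.32 and −0.12 in P1 DMEM and −1.71, −2.04 and −0.85 in P3 DMEM. To the printed digits the highest P3 array equals the lowest P1 array. The brighter PLAU probe differed by −0.49 (SE 0.27, adjusted p = 0.574 in limma), in the same direction, with overlapping arrays. PLAUR differed by −0.61 (SE 0.40, adjusted p = 0.589 in limma). With slide as a fixed block MMP14, TIMP3 and PLAUR were called between the DMEM passages, at −1.06, −1.37 and −1.38, values that rest on P1 DMEM replicate 3 as the only P1 array on slide 3.

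The balance of proteases and inhibitors was read on each array as a shift. For each protease and TIMP the level was centred on its mean in P1 DMEM, and the mean over TIMP1, TIMP2 and TIMP3 was subtracted from the mean over the measured proteases MMP1, MMP2, MMP9, MMP14 and PLAU. This log2 shift was 0.17, 0.30 and −0.10 in P1 ACM and 0.51, −0.07 and −0.44 in P1 DMEM. It was 0.35, 0.23 and −0.55 in P3 ACM and −0.21, −0.49 and −0.54 in P3 DMEM. The P1 DMEM arrays alone covered nearly the whole range, and P3 DMEM was below 0 on all 3 arrays while P3 ACM was so on 1.

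The mean shift of ACM against DMEM was 0.13 at P1 and 0.43 at P3, where it was 0.27 without TIMP2 and 0.34 without MMP14. With MMP3 included, below background as it was, these values were 0.02 and 0.63. The P1 value with MMP3 had no stable sign, being 0.32 without P1 DMEM replicate 1, −0.28 without P1 DMEM replicate 3 and −0.23 under quantile normalization. Within slide 2 the measured genes gave −0.38 for P3 ACM against P1 DMEM, the opposite sign to that of the P3 comparison. No test was made of this score, because its members were chosen.

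Single pairs were read in the same way. MMP14 minus TIMP2 was shifted by 0.12, 0.52 and −0.02 in P1 ACM and by 0.36, −0.72 and 0.00 in P3 ACM, relative to the P1 DMEM mean. In P3 DMEM, all on slide 3, the shifts were −1.04, −1.58 and −0.96, below all other 9 arrays, against −0.14, −0.33 and 0.47 in P1 DMEM. MMP1 minus TIMP1 was shifted by 0.49, 0.50 and 0.41 in P1 ACM and 0.26, −0.20 and −0.05 in P1 DMEM. All ACM arrays thus lay above all DMEM arrays at P1. These ACM arrays were all on slide 1, which held no DMEM array. Of single genes, 35.9% did not overlap between the media at P1. At P3 this pair overlapped between media, with 0.71, 0.48 and −1.0 in ACM and −0.37, −0.15 and 0.22 in DMEM. The P1 difference of MMP1 itself turned under quantile normalization, as given above. MMP9 minus TIMP1 ranged from −0.68 to 0.64 over the 12 arrays and overlapped between media at each passage, while P1 ACM lay above P3 DMEM on every array. MMP2 minus TIMP2 ranged from −0.76 to 0.63, with each group overlapping the others. The pairs were not tested.

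**Figure D3:**
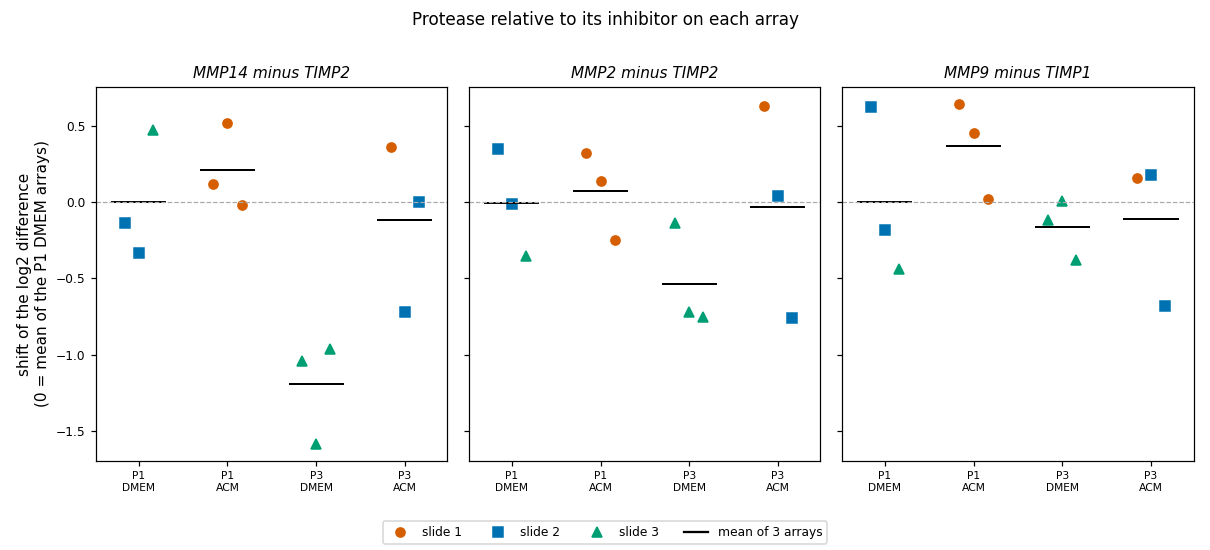
Shift of the log2 difference between a protease and its inhibitor on each array (vertical axis, 0 is the mean of the 3 P1 DMEM arrays) for MMP14 and TIMP2, MMP2 and TIMP2, and MMP9 and TIMP1. Points are arrays coloured by slide and lines are means of 3. For MMP14 and TIMP2 the P3 DMEM arrays lie at −1.58 to −0.96, below the other 9; for the other pairs the media overlap at each passage.

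The probes of MMP1, MMP9 and PLAU were printed 10 times on each array, and the median SD between spots of an array was 0.13, 0.09 and 0.04. The SD between arrays of a group was 0.51, 0.38 and 0.34 for the same genes, which also holds the differences between slides and hybridisations. Over the other genes this SD was lowest for TIMP1, 0.20, and highest for TIMP3, 0.68, followed by PLAUR at 0.54.

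PLAU and PLAUR rose and fell together from array to array. Over the 12 arrays Pearson's r was 0.83 (permutation p = 0.00056, adjusted p = 0.0202 over 36 pairs of the genes) and Spearman's rho was 0.89 (permutation p = 0.00015, adjusted p = 0.0054). It was the only pair of the 36 with an adjusted p of 0.05 or less, both tests being two-sided. The permutations treated the 12 arrays as independent, though arrays of a group or slide may be alike, so these p-values may be too small. P1 DMEM replicate 3 and P3 ACM replicate 1 were high for both genes, and P3 DMEM replicates 1 and 2 and P3 ACM replicate 3 were low for both. Without the 2 arrays farthest from the median of PLAU r was 0.81, and without the 2 farthest in PLAUR it was 0.78. The value of r was 0.81 after each group was centred on its mean, 0.87 after each slide was, and 0.86 under quantile normalization. No p was computed for these. The slides hold 4 arrays each, too few for a value of their own.

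The second PLAU probe correlated with PLAUR by 0.84 and with the first PLAU probe by 0.81. The relation does not use the group labels. Many genes followed PLAUR more closely than PLAU did. Among 15519 other genes that had a RefSeq symbol and were above background on all arrays PLAU ranked 78 in likeness to PLAUR, and the most alike were MAST4 (r = 0.962), BTG1 (0.93) and FOXO1 (0.927). For TIMP3 the most alike were KLF7 (0.939), CIB1 and GJB2 (both 0.915), and for MMP1 they were SLC6A7 (0.882), TMEM170A (0.879) and ZNF630 (0.856), each over 12 arrays and as a description. The next pairs among the 10 genes were TIMP3 with PLAUR (r = 0.76, permutation adjusted p = 0.072), MMP2 with TIMP3 (−0.72, 0.0786) and MMP1 with PLAU (0.70, 0.0786).

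**Figure D4:**
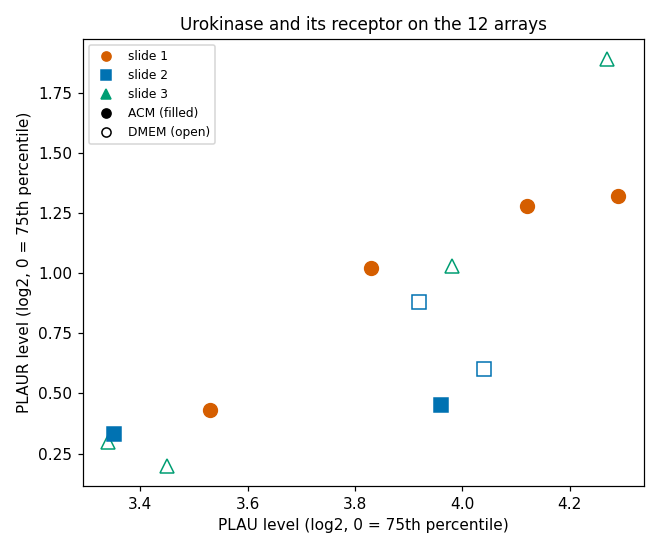
PLAUR level (vertical axis) against PLAU level (horizontal axis) on the 12 arrays, both as log2 with 0 at the array's 75th percentile. Colour and shape give the slide, filled points are ACM and open points DMEM. The points run from low to high in both genes (r = 0.83) with both media at each end.

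As a description, the 250 bases before the start of PLAU and of PLAUR are shown, read 5′ to 3′ on the gene's strand from RefSeq (GRCh38.p14). Promoters were matched for 5 of the 10 genes (MMP14, TIMP1, TIMP3, PLAU and PLAUR). Capitals mark matches, on either strand, to the AP-1 motif TGANTCA or the SP1 motif GGGCGG. The PLAU window shown is that of the more downstream of its 2 annotated starts, chr10:73910882-73911131 on the plus strand, and the PLAUR window is chr19:43670170-43670419 on the minus strand.
PLAU: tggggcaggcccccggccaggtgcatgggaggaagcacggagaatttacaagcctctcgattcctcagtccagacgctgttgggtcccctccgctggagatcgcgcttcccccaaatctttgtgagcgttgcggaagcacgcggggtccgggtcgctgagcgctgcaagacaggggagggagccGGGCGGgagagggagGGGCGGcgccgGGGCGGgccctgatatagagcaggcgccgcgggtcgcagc
PLAUR: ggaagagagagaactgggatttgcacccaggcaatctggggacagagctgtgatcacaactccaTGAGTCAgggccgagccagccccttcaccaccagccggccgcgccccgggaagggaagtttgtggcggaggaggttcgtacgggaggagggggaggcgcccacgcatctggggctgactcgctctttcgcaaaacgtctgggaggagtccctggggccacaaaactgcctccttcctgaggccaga
PLAU held 3 SP1 matches, from −66 to −35 relative to the start, and PLAUR held 1 AP-1 match, from −186 to −180. Neither of these motifs was in both windows, and other motifs were not searched beyond TATAAA. The SP1 letters occur in 42.6% and the AP-1 letters in 6.57% of 35116 promoter windows of this length, and TATAAA, the TATA box, in 10.7%, though in neither of these. TIMP3 held 5 SP1 matches, TIMP1 held 2 and MMP14 held 1. These are matches of letters and not known sites.

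The AP-1 and ETS factors, which act on many protease promoters, were read next. Of 14 tested, each above background on all arrays, 0 had p of 0.05 or less at P1 or at P3 in limma. Among all genes detected in this way, 14.3% were higher and 1.12% lower with such p at P1. At P3 these shares were 4.05% and 3.52%. FOS differed by −0.67 at P1 and −0.58 at P3, and FOSL1 by −0.38 and 0.65.

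Other genes of the protease network were read from lists. Over list members above background on all arrays, the median log2 difference at P1 and P3 was 0.19 and 0.00 for the other MMPs, 0.07 and −0.13 for the plasminogen list, 0.15 and 0.16 for ADAM and ADAMTS proteases, −0.03 at both for cathepsins and −0.08 and 0.22 for AP-1 and ETS factors, beside 0.0482 and 0.00932 for all such genes. Of 15 other MMPs tested, 5 were called higher in ACM at P1 by limma, the matrilysin MMP26 (1.94), the macrophage elastase MMP12 (1.70), MMP21 (1.23), the stromelysin MMP10 (1.18) and the membrane-bound MMP16 (1.1), with adjusted p from 0.106 to 0.177, beside 13.5% of all genes called higher. Each was above background on 3 P1 ACM arrays and 1 P1 DMEM array. With slide as a fixed block their differences were 0.00, −0.12, −0.33, 0.11 and −0.67. At P1 that fit links the media through P3 ACM replicate 1 alone. Of the 9 other MMPs above background on all arrays 0 were called, and at P3 0 of the 15 were.

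Of 17 genes of the plasminogen system and other protease inhibitors 4 were called higher at P1, beside 13.5% of all genes, and 0 at P3. None (0) of the 4 was called once slide was a fixed block, at 0.27 for A2M, −0.64 for PLG, −0.55 for SERPINF2 and −0.50 for HABP2. These values also rest on P3 ACM replicate 1 as the only link between the media. The broad inhibitor A2M differed by 1.84 (adjusted p = 0.103 in limma) and plasminogen itself, PLG, by 1.39 (adjusted p = 0.113), with A2M above background on 1 P1 DMEM array and PLG on 2. The plasmin inhibitor SERPINF2 and the serine protease HABP2 were well above background on 3 P1 ACM arrays and 0 P1 DMEM arrays, so no fold is given. Under quantile normalization their log2 differences at P1 were 0.09 and −0.03. Both passed the filter on dim probes only through P1 ACM, the group where they were high. The filter itself thus favoured a difference, and their calls carry no support. None (0) of the 12 genes of this list above background on all arrays was called. Among these was the tissue plasminogen activator PLAT, with log2 differences of −0.81 at P1 and 0.40 at P3.

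Of 15 ADAM and ADAMTS proteases 2 were called higher at P1, ADAMTS2 (1.38, adjusted p = 0.141 in limma), which trims procollagen, and ADAMTS15 (1.25, adjusted p = 0.123). Each was above background on 2 P1 DMEM arrays, and with slide as a fixed block they differed by −0.42 and −0.75. That fit again links the media through P3 ACM replicate 1 alone. Of 14 cathepsins and other matrix-degrading factors 0 were called at either passage. The cathepsin inhibitor CSTB, picked out after its values were seen, was lower in ACM without overlap at both passages, by 0.61 at P1 (difference −0.61, adjusted p = 0.103 in limma) and 0.51 at P3 (−0.51, adjusted p = 0.659 in limma).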

How the data were processed

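The authors deposited the background-corrected intensity of each spot from Agilent Feature Extraction 11.0.1.1, per the labels and file headers, not normalized between arrays, and a table of log2 values of 30569 probes. All 12 columns of that deposited log2 table rank best with the scanner output of another sample (Spearman 0.999975 or more, against 0.953 to 0.992 under their own labels), so it was used only as an alternative. Labels of the scanner files were used, and which labels are right is not known.

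Of 44495 spots an array, 1377 controls and outlier spots were left out, spots of a probe were averaged, and each array was centred on its 75th percentile after log2. A probe was kept if all 3 arrays of some group showed it well above background, 31078 of 34127 probes. A symbol was found for 25771 (75.5%) of the 34127 through RefSeq accessions. A gene was read through its brightest probe. limma 3.58.1 in R 4.3.3 fitted 4 group means to all 12 arrays (8 residual degrees of freedom), two-sided, and p was adjusted by Benjamini-Hochberg over the 31078 probes. The fit was tested on simulated data. Genes past 2-fold at p of 0.05 or less, the thresholds of the study, are called. Slides were inferred from scan time and array position. Correlations used 100000 permutations (scipy 1.17.1), and figures matplotlib 3.10.9.

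The 10 genes and the lists were chosen with earlier results of these data known. The text names these genes, list members past the thresholds (at most 5 a list and passage, by p), and the 3 genes most alike to each of the 3 members with the widest range among those above background on all arrays. FOS, FOSL1, PLAT, CSTB and ADAMTS4 are named outside this rule, as none of them passed the thresholds at P1 or P3. One gene of the lists is not reported here. Same-numbered samples deviated from their group means with correlations of 0.43, 0.19 and 0.27 at P1. The correlations were 0.23, −0.19 and 0.06 at P3, and 0.36, −0.03 and 0.48 between P1 DMEM and P3 DMEM. They do not settle whether the numbers pair samples. The main fit did not pair samples at either passage. With replicate number as a block 0 of the 9 genes passed the p threshold at P1. Alternatives were quantile normalization, normexp (offset 50) before it, the table of the authors, other probe filters and probe rules, only the arrays compared, eBayes with trend, the methods' t-test, slide or replicate number as a block, and each array left out. The number of arrays limits the precision.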

Additional observations from a re-analysis of the deposited data

How the results depend on the processing

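With the replicate block the called genes stayed at 0 in every comparison of the 9 genes. More of them passed the p threshold alone, before adjustment. At P3 these were 2 of 9, TIMP2 and MMP14, against 1 in the main fit. Between the DMEM passages they were 4 of 9, against 1 in the main fit. Calls above 0 arose as follows. With no filter on dim probes MMP3, below background throughout, made 1 call each at P3, for the difference between passages and between the DMEM passages. With slide as a fixed block there was 1 call at P3 (TIMP3, 1.48, adjusted p = 0.977 in limma), beside 2.7% of all genes. There were 2 for the difference between passages (PLAU 1.14, PLAUR 1.80), beside 2.83%, and 3 between the DMEM passages, beside 1.95%. With slide as a random block there was 1 call between the DMEM passages (PLAUR −1.0), beside 1.36%. The fixed-block values link the media through P3 ACM replicate 1 alone at P1 and P1 DMEM replicate 3 alone at P3. The difference between passages rests on both arrays. Without the 4 arrays of slide 2, chosen after seeing the data, the difference was −1.15 for TIMP3 at P1 and −1.13 for TIMP2 at P3. This leaves 1 P1 DMEM and 1 P3 ACM array, each assumed to vary like the other groups, so no calls are read from these fits. The balance of all members at P1 lay between −0.28 and 0.32 with 1 array left out and was −0.23 under quantile normalization. At P3 it was −0.11 in the table of the authors. Within slide 2 it was −0.33 for P3 ACM against P1 DMEM, which compares different passages. The cause of these changes was not tested.

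Directions of differences that missed the threshold turned often. At P1 MMP1 was −0.21 under quantile normalization and −0.09 with normexp. In the table of the authors MMP1 was −0.19, MMP2 0.06, MMP14 0.34, TIMP2 0.25 and TIMP3 −0.66. With slide as a fixed block MMP1 was −0.46, MMP9 −0.19, MMP14 0.15, TIMP1 0.08 and TIMP2 0.43, and as a random block TIMP2 was 0.01 and TIMP3 −0.12. At P3 MMP1 was −0.05 under quantile normalization and MMP2 0.02 with normexp. In the table MMP2 was 0.02, MMP14 −0.35, TIMP1 0.06, TIMP2 0.38, PLAU −0.26 and PLAUR −0.39. With slide as a fixed block TIMP1 was 0.33 and TIMP3 1.48, and as a random block 0.06 and 0.48. MMP14 between the DMEM passages was 0.07 in the table.

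Leaving out 1 array at a time turned the direction of several genes. At P1 the ranges of these were −0.45 to 0.02 for MMP2, −0.20 to 0.09 for MMP14, −0.25 to 0.06 for TIMP1, −0.40 to 0.69 for TIMP3 and −0.47 to 0.17 for PLAUR. At P3 they were −0.26 to 0.58 for MMP1, −0.24 to 0.11 for MMP2, −0.18 to 0.23 for MMP9, −0.18 to 0.00 for TIMP1, −0.49 to 0.16 for TIMP3 and −0.12 to 0.45 for PLAUR. TIMP2 at P3 stayed lower, from −0.77 to −0.35, with p of 0.05 or less before adjustment lost without P3 ACM replicate 1, P3 DMEM replicate 2 or P3 DMEM replicate 3.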
